A study of Drosophila melanogaster with 4 samples.

Results

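Ddc and snu are 2 genes of the insect cuticle that appear among the 244 rows of a table of regulated genes from the larval airway of Drosophila melanogaster. They were picked by gene identifier, CG10697 for Ddc and CG9990 for snu, and each has 1 row. The rows of that table had themselves been selected on the mean log2 ratio and related output of the programs SAM and GeneTraffic, so the ratios below describe genes chosen by those same values and carry no test.

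In the study, the peptidoglycan receptor PGRP-LE was overexpressed in larval tracheae to start the immune deficiency (IMD) pathway without infection. One RNA came from tracheae of third-instar F1 larvae of the cross NP2610::UAS-PGRP-LE, in which the airway driver NP2610 turns on the transgene through GAL4/UAS. The other came from the NP2610 driver strain alone at the same stage, so both groups carry the driver. Its copy number may differ between the F1 larvae and the strain, and was not examined. The UAS-PGRP-LE transgene and the genetic background of the second parent are present in the cross alone. These differences between the groups cannot be told apart. Per the labels, larvae of both groups were raised at 22 °C to an age of about 10 days, and each RNA was pooled from 20 pairs of tracheae. Both RNAs were hybridised together on each of 4 arrays, which the titles describe as 2 biological replicates with 2 arrays each. The file writes the driver's number as NP2160, the labels as NP2610. A tracheal preparation is a mixture of cells, and in such bulk RNA fewer cells of a type and less RNA per cell cannot be told apart.

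Ddc encodes dopa decarboxylase, the enzyme that turns dopa into dopamine and 5-hydroxytryptophan into serotonin. In the epidermis its dopamine feeds the tanning pathway, in which derivatives of dopamine cross-link and darken the cuticle proteins and chitin, and the gene is a classic member of the transcriptional response to epidermal wounds. In neurons the same enzyme makes transmitters. The gene snu (snustorr) encodes an ATP-binding cassette (ABC) transporter of the H subfamily that is needed for the outer cuticle layer that keeps water in and solutes out. Larval tracheae are epithelial tubes lined by cuticle, so both genes belong to a structure that the airway itself builds. Release 6 of the RefSeq annotation places Ddc on chromosome arm 2L with 3 transcripts and snu on 3R with 6, and the files do not say which transcripts the probes detect.

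The file does not name the numerator of its ratio. Its hybridisation group is called after the PGRP-LE cross, so a positive value likely means more RNA in the cross, and "higher" is used in that sense. Both genes were higher: the authors' deposited table gave Ddc a mean log2 ratio of 1.92 and snu one of 0.68. Among all its rows 76.6% were higher, so 2 positive signs set neither gene apart. Read the other way, 23.4% of rows would be higher, and both genes would be lower. Ddc stood near the top of the list and snu near the bottom of its positive part.

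For Ddc, the mean of 1.92 (authors' SD 0.82 over 8 valid spots) in the authors' deposited table corresponds to a 3.78-fold difference. One SD below and above that mean lie at 1.10 and 2.74 on the log2 scale of the authors' deposited table, or at 2.14-fold and 6.68-fold. It held the fifth place of 244 rows, with 4 rows above it and 182 higher rows below it. A log2 ratio of 1 was reached by 79 higher rows of the authors' deposited table, Ddc among them and snu not. When the mean less 1 SD is taken instead of the mean, 13 of the higher rows of the authors' deposited table had a larger value than Ddc.

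The mean of snu was 0.68 (authors' SD 0.37 over 6 valid spots) in the authors' deposited table, a 1.60-fold difference. One SD either side of it gives 0.31 and 1.05 on the log2 scale of the authors' deposited table, or 1.24-fold and 2.07-fold. It was in place 167 of 244, with 166 rows above it and 20 higher rows below it. The smallest positive mean in the authors' deposited table was 0.59, shared by 6 rows, so snu lay 0.09 above the edge of what had been selected. Genes just outside that edge are not in the table, and their values were not analysed here.

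**Figure D1:**
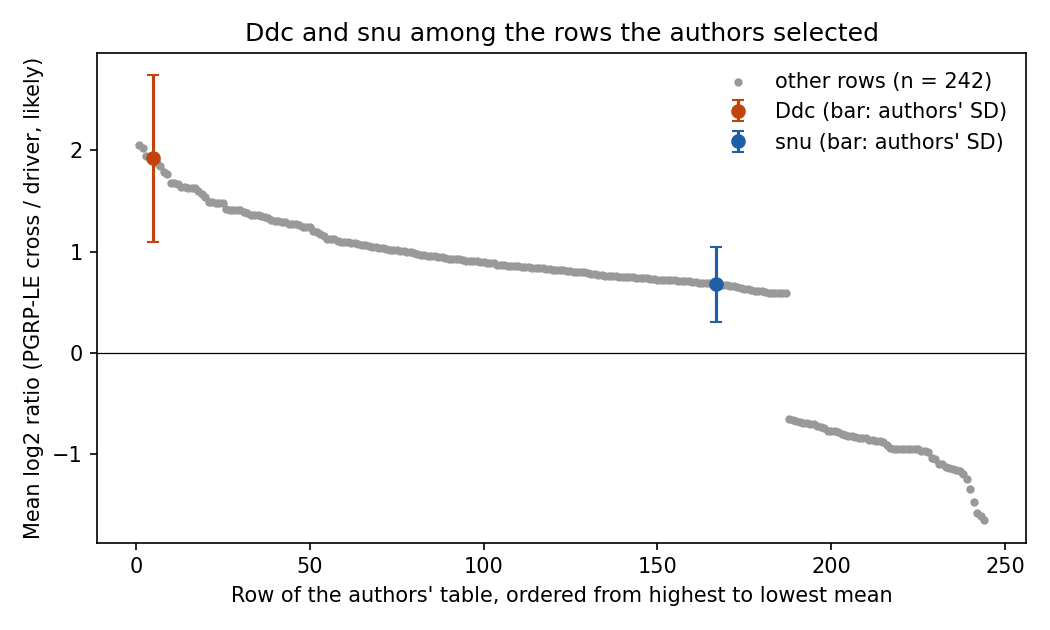
Mean log2 ratio of every row of the authors' deposited table (vertical axis) against its place in the order from highest to lowest (horizontal axis), with grey points for the other 242 rows and bars of 1 authors' SD on Ddc and snu. Ddc sits at place 5 with a mean of 1.92 and snu at place 167 with a mean of 0.68, close to the end of the positive rows at 0.59.

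The 2 genes differed by 1.24 on the log2 scale of the authors' deposited table, a factor of 2.36 between their ratios, and 161 rows lay between them. Their bands of 1 SD did not overlap, with a gap of 0.05 between the lower end for Ddc and the upper end for snu. That gap is small, and no test was made of it, since both rows were selected on these means and the spots behind an SD share arrays and RNA. The difference is one between 2 ratios. It says nothing of which transcript was more abundant in the tracheae.

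The authors' SD, which is pooled over spots and arrays, was larger for Ddc than for snu in absolute terms and smaller relative to the mean. Of the 187 higher rows in the authors' deposited table, 24 had a larger SD than Ddc and 160 a smaller one. For snu the order was the reverse, with 143 higher rows above its SD and 40 below it. The coefficient of variation, which is the SD divided by the mean, was 0.42 for Ddc and 0.53 for snu in the authors' deposited table, and both lay under the median of 0.57 for higher rows. Its largest value over all rows of the authors' deposited table was 0.97, so no row had a band of 1 SD that reached 0. That the bands of Ddc and snu lie above 0 therefore sets neither gene apart. Put the other way round, the mean of Ddc was 2.34 times its SD and that of snu 1.84 times in the authors' deposited table. Ordered by the size of that ratio, Ddc fell to place 66 and snu moved up to place 105 of 244 rows. The genes also rest on different numbers of spots. Ddc had 8, like 134 rows of the authors' deposited table, of which 2 had a higher mean. For snu there were 6, the lowest number in the authors' deposited table and that of 73 rows, of which 53 had a higher mean.

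**Figure D2:**
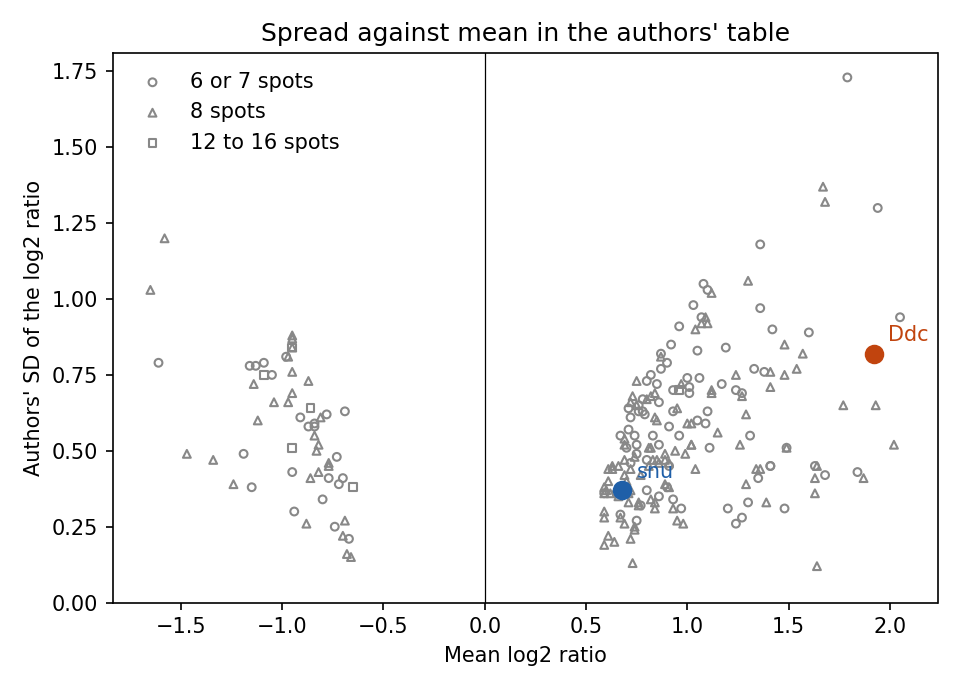
The authors' SD of the log2 ratio (vertical axis) against the mean log2 ratio (horizontal axis) for all 244 rows of the authors' deposited table, with marker shapes for the number of valid spots and filled points for Ddc and snu. Ddc, with an SD of 0.82, lies at the far right of the plot, and snu, with an SD of 0.37, lies in the dense group of rows just right of the empty zone around 0.

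The 6 rows next to Ddc in the order lay close to it. Directly above it the authors' deposited table had CG15096, annotated there with phosphate and cation transport, with a mean of 1.93 and an SD of 0.65, and Cpr62Ba, a cuticle protein gene of the Cpr family, with a mean of 1.94 and an SD of 1.3. In the authors' deposited table, AttC, which encodes the antibacterial peptide attacin C, had a mean of 2.02 with an SD of 0.52. Rows below Ddc in the authors' deposited table were CG4757 with a mean of 1.87 and an SD of 0.41, the attacin gene AttA with 1.84 and 0.43, and CG30378 with 1.79 and 1.73. All 6 of these means lay within 1 SD of the mean of Ddc, so its place among them is not settled by the spread. In all, 60 other higher rows of the authors' deposited table had a mean inside the band of 1 SD around Ddc.

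Around snu the order was tighter still. The 3 rows above it in the authors' deposited table, CG11975, Usp2 and Gapdh2, each had a mean of 0.69. Usp2 encodes a ubiquitin-specific protease and Gapdh2 a glycolytic dehydrogenase. The 3 rows below it, drongo, CG41520 and CG8945, each stood at 0.67 in the authors' deposited table. The SDs of these 6 rows ran from 0.26, in Usp2, to 0.55, in CG41520, in the authors' deposited table, and that of snu fell between them. A mean within 1 SD of snu was found for 119 other higher rows of the authors' deposited table.

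**Figure D3:**
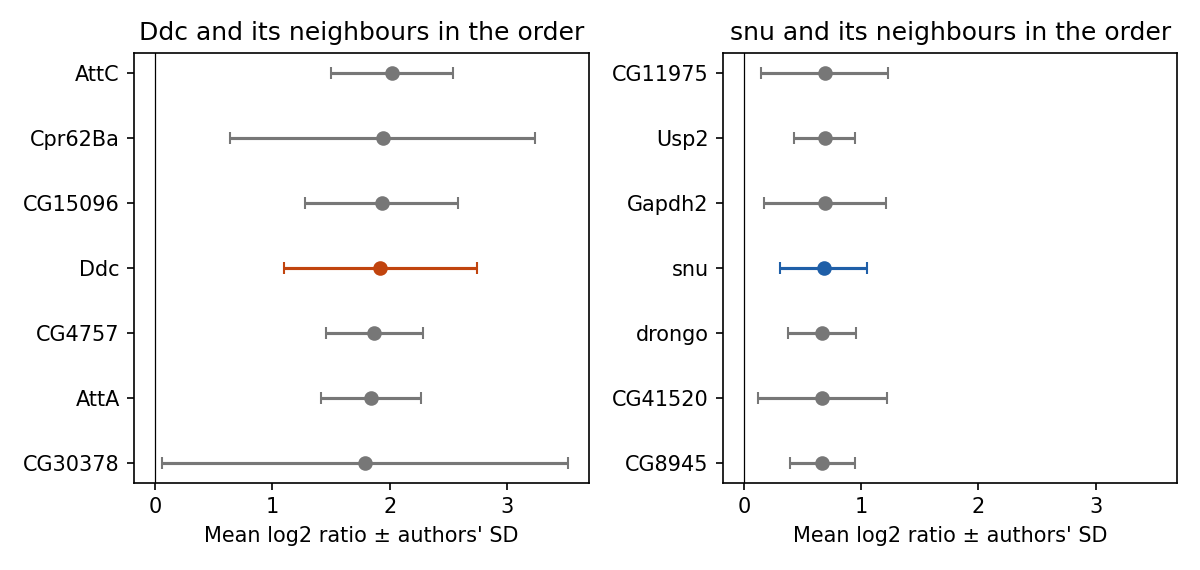
Mean log2 ratio with bars of 1 authors' SD (horizontal axes) for Ddc, for snu and for the 3 rows above and 3 below each in the authors' deposited table. The means around Ddc run from 1.79 to 2.02 and those around snu from 0.67 to 0.69, and within each panel all bars overlap.

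No other gene of the tanning list was among the selected rows. Of 29 genes of the tanning and melanin list that could be matched to the annotation, Ddc was the sole one in the authors' deposited table. The list holds ple, the tyrosine hydroxylase that supplies dopa to Ddc, and Pu, the GTP cyclohydrolase that makes the cofactor of that step. It also holds ebony (e) and tan (t), which join and release beta-alanine and dopamine, and black (b), which makes beta-alanine. The laccase gene straw (stw) and the yellow family are in it as well. Outside the list, CG32099, which the file names ebony activating protein and annotates with phosphopantetheinylation, was lower in the authors' deposited table, with a mean log2 ratio of -0.84 and an SD of 0.58 over 6 spots. It was noticed after its value was seen. The phenoloxidase genes PPO1, PPO2 and PPO3, which form melanin in blood cells, of the list had no row. Absence from a list of selected genes gives no level for them, and the sources used here do not say whether each had a probe on the array. As a background, 1.66% of the 13962 protein-coding genes of the annotation were in the authors' deposited table.

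Relatives of Ddc were also missing from the table. Of 7 pyridoxal phosphate decarboxylase genes of the list, among them the tyrosine decarboxylases Tdc1 and Tdc2 and the histidine decarboxylase Hdc, Ddc alone was present. One relative, amd, lies 2 places from Ddc in the gene order of Release 6. None of the 10 genes nearest to Ddc in that order, 5 on each side, was in the authors' deposited table, and the same held for the 10 genes nearest to snu. Neither Ddc nor snu lay within 20 CG numbers of another row of the table. Of the rows next to them in the order, AttA, drongo, CG4757, AttC, Gapdh2 and CG8945 did have such a close number on another chromosome arm. The share of all rows with a close number is not given here, so these counts set no gene apart.

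Among ABC transporters, 1 gene besides snu had a row. Of 52 genes of that list, 2 (3.85%) were in the authors' deposited table, snu and CG8908. The list was drawn up to hold snu, and 1.66% of all protein-coding genes of the annotation were in the authors' deposited table. Both genes were higher, as were 76.6% of all rows. The authors' deposited table gave CG8908 a mean log2 ratio of 0.81 (authors' SD 0.45 over 8 valid spots), a 1.75-fold difference, so its mean lay 1 SD or less from that of snu. CG8908 is the sole other row to which the file gives the ABC transporter complex term. It also had 5 rows within 20 CG numbers on other chromosome arms, a count without a share over all rows beside it. The eye pigment transporter genes w, bw and st and the multidrug transporter genes Mdr49, Mdr50 and Mdr65 were not among the rows, nor was osy, which has a barrier function like that of snu.

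From the list of 39 cuticle barrier, chitin and tracheal lumen genes, snu was the sole row. Genes not selected include snsl, which acts with snu in the barrier, the chitin synthase gene kkv, the chitin organisers knk and rtv, the deacetylase genes serp and verm of the tracheal lumen, and Cyp4g1, an enzyme of cuticular hydrocarbon synthesis. In the wound response list of 19 genes, Ddc was the sole row. Its known regulators there, the transcription factor gene grh and the AP-1 genes kay and Jra, were not in the authors' deposited table, and nor were the receptor kinase gene Cad96Ca and the stress kinase genes hep and bsk. These lists were drawn up to hold snu or Ddc, so a count of 1 in each was given in advance. It does not measure how far the selection reached into these pathways. The table cannot say whether the others stayed level or missed its thresholds.

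The annotations deposited with the table tie the genes to different processes. For Ddc the file lists aromatic-L-amino-acid decarboxylase activity, synthesis of dopamine and serotonin, melanin and cuticle biosynthesis, pigmentation, and learning and courtship terms, 10 terms in all. No other row carries any of these 10 terms. For snu it lists 7 terms, of which ATP binding was shared with 6 other rows, 4 of them higher and 2 lower, transport with 6 rows, 3 higher and 3 lower, and membrane with 10 rows, 8 higher and 2 lower. The 2 genes had 0 terms in common, and 92 of the 244 rows have no term at all. By gene name, which goes further than the file's own terms, 10 rows of the authors' deposited table belong to the Cpr, Lcp and Twdl groups of cuticle protein genes, and 6 of them were higher and 4 lower. The 6 higher ones in the authors' deposited table were Cpr62Ba, given above, Cpr51A at 1.64, the pseudogene Lcp65APsi at 1.03, Cpr67Fb at 1.02, Cpr78Ca at 0.74 and Cpr67Fa2 at 0.72.

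Markers of other cell types that could be in a tracheal preparation also had rows, and their part in the values of Ddc and snu was not tested. As a background for the counts, 1.66% of the protein-coding genes of the annotation were in the authors' deposited table, and 23.4% of its rows were lower. Of 9 epidermis markers, 4 were in the authors' deposited table and all 4 were lower, on the side opposite to Ddc and snu. They are the 4 lower rows of the 10 cuticle protein genes just described, of which the other 6 were higher, so they do not stand for that class. Their values were Lcp1 at -1.47, Lcp2 at -1.34, Cpr65Av at -1.13 and TwdlT at -0.66 in the authors' deposited table. Of 13 blood cell markers, NimB2 at 0.80 and atilla at 0.74 were higher in the authors' deposited table, while the crystal cell markers PPO1, PPO2 and lz and the plasmatocyte markers Hml and NimC1 had no row. Of 6 neuron markers, fne was the sole row, at -0.95 in the authors' deposited table. Further rows of the authors' deposited table were Tsf1 at 0.70 and Lsp2 at -0.86 from the fat body list, Mf at -1.09 from the muscle list, and Jon99Fi at -1.58 from the list of gut genes. None of 11 tracheal markers, among them trh, btl, serp and verm, was selected. The table gives ratios and no levels, so it holds no check that the RNA was tracheal.

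**Figure D4:**
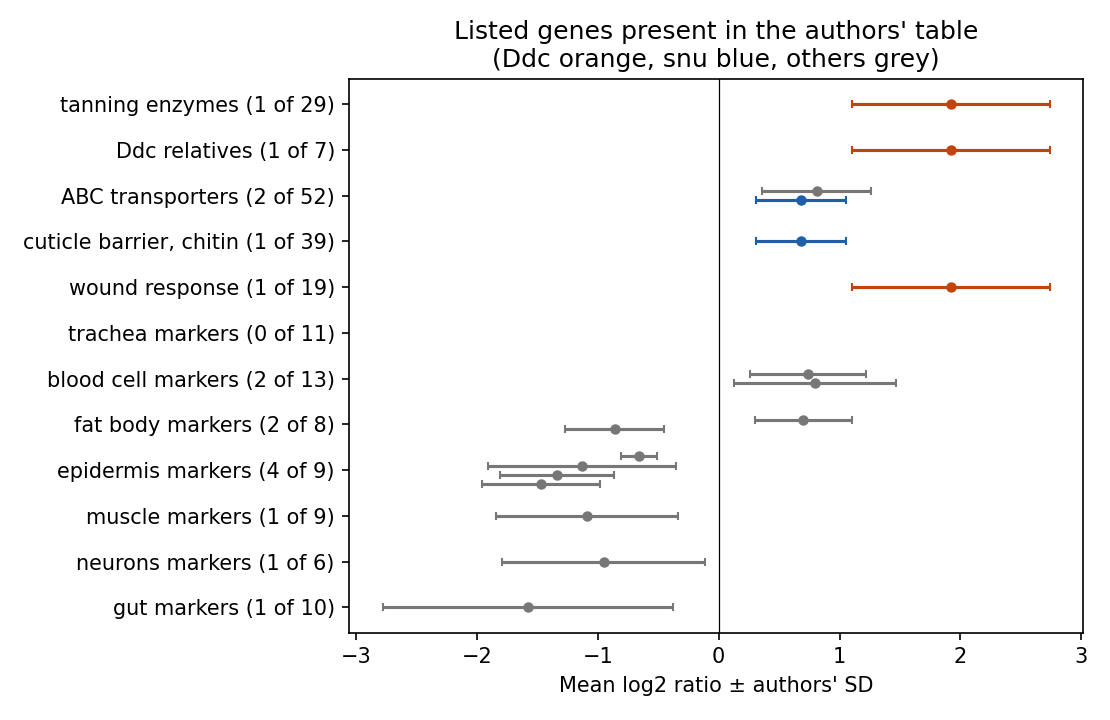
Mean log2 ratio with bars of 1 authors' SD (horizontal axis) for every gene of the 5 pathway lists and 7 marker lists that is in the authors' deposited table, with the number present of the number matched beside each list. Ddc is the sole point of the tanning, Ddc relative and wound lists, snu of the cuticle barrier list, and the 4 epidermis markers lie below 0.

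A second file holds a value for each of 32448 spots on each of the 4 arrays, but its spots are numbered and carry no gene names, so the spots of Ddc, snu and PGRP-LE could not be picked out and no value per array is given for them. PGRP-LE has no row in the authors' deposited table either, so the overexpressed gene gives no check of the labels or of the ratio's direction. The attacin, cecropin, diptericin and defensin genes in the authors' deposited table all had positive means, among them AttC at 2.02, AttA at 1.84, CecA2 at 1.68 and DptA at 1.20. For genes of antibacterial peptides this goes with the direction taken as likely above, but it was not tested. The array medians of the spot values were 0.98 and -0.39 in replicate 1 and -0.07 and -0.41 in replicate 2, so the arrays had not been centred alike, and the scale and direction of these values are unknown. Between arrays, Pearson's r across spots ran from -0.086 to 0.106, a description across spots that are not independent. Between the 2 arrays of the same replicate, r was -0.086 in replicate 1 and 0.008 in replicate 2. Both values are small, so those arrays neither agreed closely nor mirrored each other. With the signs as deposited and the arrays of a replicate averaged, limma's test against 0 on 2 replicates called 0 of 32448 spots (0%) at an adjusted p under 0.05. At an unadjusted p under 0.05, 1256 spots (3.87%) passed in the same limma fit. The arrays were not centred alike and their signs are unknown, so that share cannot be read against 5%. The 2 arrays of a replicate are described as dye-swapped repeats. If their signs were deposited unturned, averaging them would cancel a difference, so the count of 0 does not show that there was none. The count of called spots was 139 when the second array of each replicate was turned and each array was centred, a reading added after seeing the data.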

How the data were processed

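RNA from tracheae of the PGRP-LE cross and of the driver strain was compared on 4 arrays. The deposited gene table holds, per the file headers, log2 means of the ratio with an SD on that scale, the number of valid spots and a coefficient of variation, which is a ratio. The sources used here do not give the background correction, normalization, spot filters or selection thresholds. Values are pooled over arrays, so replicate error is unknown and the authors' SD is given as it stands. In the second deposited file, each spot has a score whose scale, centring and direction stay unknown. For 1 array the dye of both channels is labelled Cy5.

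Identifiers were matched to RefSeq Release 6 for names and gene order: 227 by locus tag, 13 by an older identifier and 4 not at all. Close CG numbers are those within 20. Members and lists were chosen with earlier results of these data known. The rule named PGRP-LE, list members in the table and the 3 rows above and below each member. Naming the genes closest in pattern over arrays, and counting list members called, could not be done without spot names, so members present in the table were counted, a choice made after seeing the data. For the same reason the planned fit ran per spot. Genes named as absent from the table, the annotation terms and the cuticle protein rows taken by name were also chosen after seeing the data. The titles do not say that replicates came from separate crosses, so p-values may measure technical spread. Python 3.11.15, pandas 2.3.3, numpy 2.4.6, R 4.3.3 and limma 3.58.1 were used. The fit was tested on simulated data with large shifts and independent noise. That does not show how well it would find differences of the size in the gene table, on uncentred arrays of unknown sign.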

Additional observations from a re-analysis of the deposited data

How the results depend on the processing

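As a share of the rows counted from the top, Ddc stood at 2.05% and snu at 68.4%. Reading the ratio the other way turns Ddc to -1.92, place 240 of 244 or 98.4%, and snu to -0.68, place 78 or 32%. Ordered by the mean divided by the authors' SD, sign kept, Ddc moved to 21.3% and snu to 34%. Among the 80 rows with a coefficient of variation under 0.5, Ddc stood at 5%, as place 4 of fewer rows, and among the 140 rows with at least 8 valid spots at 2.14%, while snu enters neither set. The count of 0 spots called by limma was also 0 with the replicate number as a random block, with centred arrays, at an adjusted p under 0.1 and with robust eBayes. The dye fields name Cy5 for both channels of 1 array, so they do not settle the sign that array was given. Among sign readings added after seeing the data, the count was 0 with arrays turned by their dye fields, centred or not, and with the second array of each replicate turned. It was 139 when those arrays were turned and each array was also centred, so the count depends on the unknown direction and centring, and which genes these spots belong to is unknown. Every spot had a value on all 4 arrays, so that filter changes nothing. Values of Ddc and snu by array, with their alternatives and with a replicate left out, were not run because the spots have no gene names, and the list counts by spot were not run for the same reason. With 1 replicate left, the spot fit has no residual degrees of freedom. Both RNAs share each array, so the test of the ratio against 0 is already the paired comparison, and there is no second group to pair. The 6 to 8 spots behind each mean share 4 arrays and limit its precision.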
